A study of Rattus norvegicus with 46 samples.

Results

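Livers and quadriceps muscles of the same study were compared for how each gene answered food restriction. The quantity described is the change in liver between weight-matched and vehicle libraries minus the same change in quadriceps, called the tissue difference here. All libraries labelled weight matched or vehicle were taken by their labels, 31 of the 46 in the series. Liver had 8 weight-matched and 8 vehicle libraries, and quadriceps had 8 weight-matched and 7 vehicle libraries. All rats carried the WT genotype, and the design text calls them DIO, which stands for diet-induced obese. Weight-matched rats had their food restricted so that body weight was matched, and vehicle rats received the vehicle alone. For liver, treatment lasted 20 days according to the design text, which names no time for muscle. Another group received CagriSema, which combines cagrilintide, a long-acting amylin analog, with the GLP-1 receptor agonist semaglutide. Its libraries entered only the filter, the scaling and the estimate of how much each gene varied between libraries. The sources used here do not give strain, sex, age or diet composition. Nothing in the labels states that every library is a different animal, nor that a liver and a quadriceps library with the same number share a rat, and p-values therefore reflect library-to-library spread, which may be technical.

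When food is short, liver is known to make less fatty acid and cholesterol as insulin falls, and to release glucose and ketone bodies for other organs. Skeletal muscle under the same conditions is known to spare glucose, oxidise fatty acids and, with prolonged shortage, lose protein. The extracellular matrix, a mesh of collagens, laminins and proteoglycans around cells, is made in liver mainly by stellate cells and in muscle mainly by fibroblasts.

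Library totals were 9888858 to 15929822 counts in liver and 11462369 to 16525274 counts in quadriceps. Levels are given as CPM, counts scaled to the size of each library. A count of 0 leaves room for a level of up to 0.188 to 0.303 CPM depending on the liver library and 0.182 to 0.262 CPM for quadriceps libraries, by counting error only. The tissue labels matched their markers: 7 hepatocyte markers summed to at least 106500 CPM in every liver library, and 7 myofibre markers to at least 117500 CPM in every quadriceps library. Vehicle liver 4 and vehicle liver 6 lay 137 and 39.97 from the centre of the first principal component of liver, where the other liver libraries of these groups lay within 14.95. Vehicle quadriceps 2 lay 63.9 from the centre of its component, where the other quadriceps libraries lay within 27.45. Main counts are also given without vehicle livers 4 and 6 and vehicle quadriceps 2 and 5. Vehicle quadriceps 5 was the library at 27.45, with vehicle quadriceps 8 at 25.64.

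2 vehicle libraries held transcripts of the other tissue. Myofibre markers summed to 0.803 to 1.96 CPM in weight-matched livers, where Mb was at 0, and to 88.5 CPM in vehicle liver 1, with at most 2.49 CPM in the other vehicle livers. Hepatocyte markers summed to 46.1 to 62.95 CPM in weight-matched quadriceps and to 113.5 CPM in vehicle quadriceps 2, with 36.6 to 61.1 CPM in the other vehicle quadriceps. Nearly all of that common level was Tf, the iron carrier transferrin, which averaged 49.9 CPM in weight-matched and 53.6 CPM in vehicle quadriceps.

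**Figure D1:**
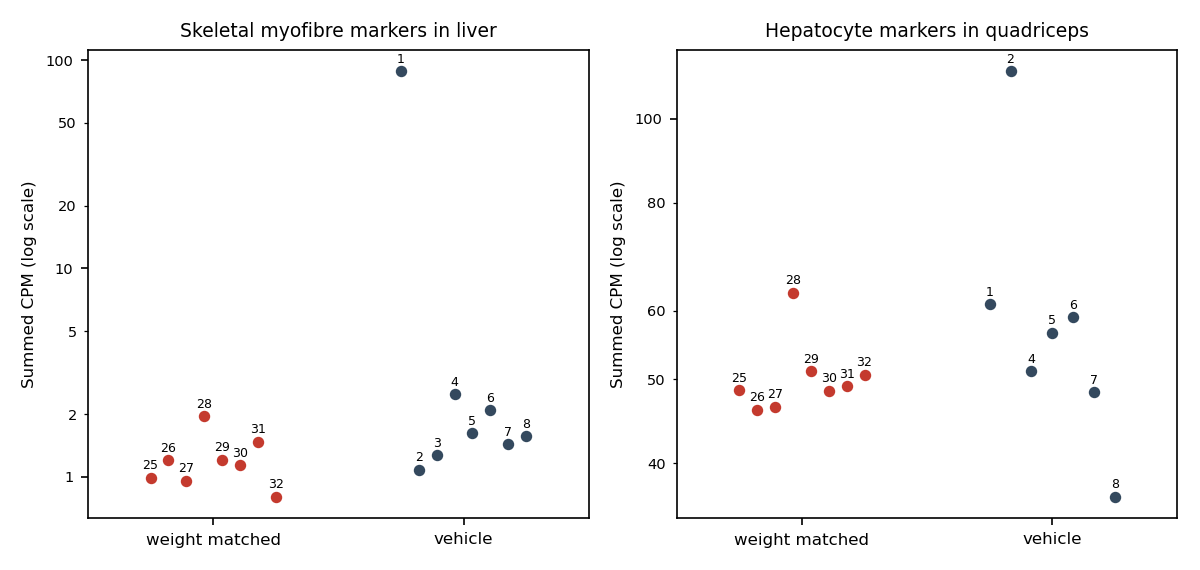
Summed CPM (log scale) of 7 skeletal myofibre markers in each liver library and of 7 hepatocyte markers in each quadriceps library, with weight-matched libraries left of vehicle libraries and library numbers beside the points. Vehicle liver 1 reached 88.5 CPM and vehicle quadriceps 2 reached 113.5 CPM, above all other libraries of their tissue in the plot.

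Weight matching changed 389 of 14110 genes differently in liver and quadriceps, 2.76% of those tested, in edgeR's quasi-likelihood test (Benjamini-Hochberg adjusted p under 0.05). In 194 of them (1.37%) the liver change lay above the quadriceps change, and in 195 (1.38%) below it. The median size of the tissue difference among the 389 genes was 0.89 on the log2 scale, and 162 genes reached at least 1. In the same fit, 1686 genes (11.9%) passed in liver, 566 higher (4.01%) and 1120 lower (7.94%) in weight-matched rats. In quadriceps 217 genes (1.54%) passed, 48 higher (0.34%) and 169 lower (1.2%). Without the 4 vehicle libraries named above, 190 genes passed for the tissue difference, 138 of them among the 389. In liver 1132 then passed, and in quadriceps 33. Without vehicle quadriceps 2 and 5 alone, 157 passed for the difference and 5 in quadriceps. With same-numbered libraries of the 2 tissues treated as pairs, 283 passed for the difference, 229 of them among the 389. Of the genes named by the rules given below, 18 passed only without this pairing.

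The fold changes in liver and quadriceps had opposite signs in 350 of the 389 genes (89.97%), against 45.2% of all genes tested, a share that selecting genes by their difference raises. Few of these changes passed in quadriceps, and the patterns here are by the test in each tissue. Of the 389 genes, 161 were lower in liver and passed no test in quadriceps, and 90 were higher in liver and passed none in quadriceps. Another 52 were lower in quadriceps and 10 were higher in quadriceps without passing in liver. A further 7 genes passed in both tissues in opposite directions, and 69 passed in neither tissue although the difference itself did. The change was larger in liver for 260 of the genes and larger in quadriceps for 129. By level, 327 genes averaged at least 1 CPM in both tissues, which is 3.17% of the 10329 such genes, while 25 reached that level in liver alone, 27 in quadriceps alone and 10 in neither.

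**Figure D2:**
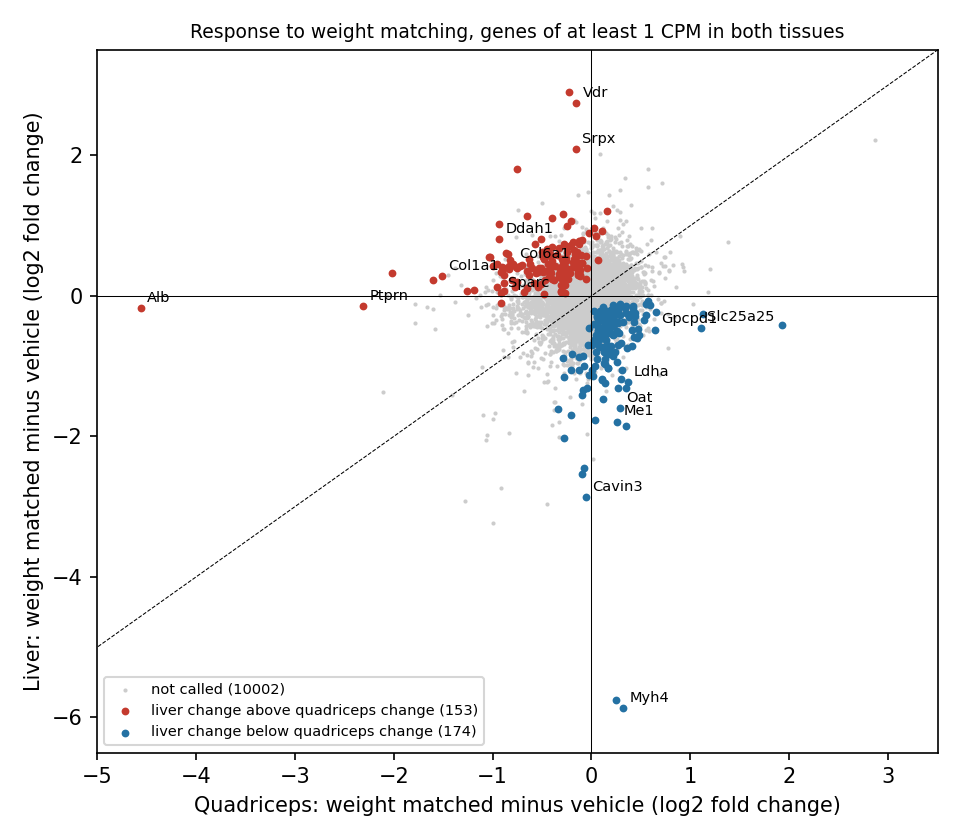
Log2 fold change of weight-matched over vehicle libraries in liver (vertical axis) and quadriceps (horizontal axis) for the 10329 genes averaging at least 1 CPM in both tissues; the dashed line marks equal change. Red points are the 153 genes whose liver change lay above the quadriceps change, blue points the 174 below it, and grey points the 10002 genes that did not pass.

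In each tissue tested on its own, 20 genes passed in both. They were 1.19% of the liver list, beside 1.54% of all genes called in quadriceps, and 9.22% of the quadriceps list, beside 11.9% of all genes called in liver, which is near the background. Of the 20, 13 had the same direction. 10 of the 13 were lower in both. They included Nr1d1, which encodes the clock repressor REV-ERB alpha, with a log2 fold change of -0.64 in liver and -0.78 in quadriceps, and Hes6, a helix-loop-helix regulator, with -0.77 and -0.90 in that order. The 3 that were higher in both were Fkbp5, a glucocorticoid-induced co-chaperone (0.77 in liver and 1.38 in quadriceps), Klf10 (0.62 and 0.79), a zinc-finger repressor, and Eef2k (0.60 and 0.46), the kinase that slows translation elongation. These names were chosen after their values were seen. Across the 10329 genes the liver and quadriceps fold changes had a Pearson r of 0.12 and a Spearman rho of 0.11, as a description, since genes are not independent replicates.

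Oat and Ldha, of amino acid and lactate metabolism, had the lowest adjusted p-values of the named genes. Oat encodes ornithine aminotransferase, a mitochondrial enzyme that links ornithine to glutamate. It had 58.1, 113 and 127 CPM in weight-matched livers, the lowest, median and highest of the group, against 185, 288 and 529 CPM in vehicle livers. In quadriceps it had 117, 126 and 137 CPM in weight-matched libraries and 84.9, 103 and 121 CPM in vehicle libraries. All weight-matched livers lay below all vehicle livers, whereas the quadriceps groups overlapped. The tissue difference of Oat was -1.88 ± 0.25 (log2, SE; adjusted p = 1.62e-05), from -1.59 in liver (adjusted p = 8.41e-08) and 0.29 in quadriceps (adjusted p = 0.498), and it was -1.67 without the 4 vehicle libraries (adjusted p = 0.000307).

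Ldha encodes the lactate dehydrogenase subunit that predominates in fast muscle. It had 364, 509 and 882 CPM in weight-matched livers against 949.7, 1275 and 2146 CPM in vehicle livers, and 2474, 3246 and 3694 CPM in weight-matched quadriceps against 1867, 2254 and 3011 CPM in vehicle quadriceps. Again the liver groups did not overlap and the quadriceps groups did. The difference was -1.60 ± 0.23 (adjusted p = 5.54e-05), with -1.23 in liver (adjusted p = 1.19e-06) and 0.37 in quadriceps (adjusted p = 0.271). Without the 4 libraries it was -1.37 (adjusted p = 0.000648). Rodent genomes carry processed copies of Ldha and Gapdh, and how reads shared with such copies were counted is not given in the sources used here.

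Vdr, the vitamin D receptor, differed in the other direction. It had 2.16, 3.67 and 5.165 CPM in weight-matched livers against 0, 0.485 and 1.045 CPM in vehicle livers, and 1.496, 2.955 and 4.045 CPM in weight-matched quadriceps against 1.67, 3.11 and 4.41 CPM in vehicle quadriceps. Every weight-matched liver lay above every vehicle liver, and the quadriceps groups covered nearly the same range. Its difference was 2.90 ± 0.43 (adjusted p = 7.76e-05), from 2.75 in liver (adjusted p = 2.86e-07) and -0.15 in quadriceps (adjusted p = 0.896). It was 2.84 without the 4 libraries (adjusted p = 0.000228).

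The stretches of 250 bases before the start sites of these 3 genes and of Col6a1, a collagen described further on, are printed to show what lies in front of genes that were lower in liver, higher in liver or changed in opposite directions. They come from RefSeq for the rat build GRCr8, 5′ to 3′ on the strand of the gene. Capitals mark a GC box, searched as GGGCGG or its reverse complement CCGCCC, or an E-box, searched as CACGTG, which reads the same on both strands. The spans are chr1:196797755-196798004 on the minus strand for Oat, chr1:106507842-106508091 on the plus strand for Ldha, chr7:130916758-130917007 on the minus strand for Vdr and chr20:11905440-11905689 on the plus strand for Col6a1.
Oat: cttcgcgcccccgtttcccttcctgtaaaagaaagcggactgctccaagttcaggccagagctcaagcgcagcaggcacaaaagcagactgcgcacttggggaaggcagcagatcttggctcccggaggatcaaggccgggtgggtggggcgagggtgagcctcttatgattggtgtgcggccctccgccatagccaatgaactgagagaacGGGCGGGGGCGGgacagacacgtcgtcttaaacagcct
Ldha: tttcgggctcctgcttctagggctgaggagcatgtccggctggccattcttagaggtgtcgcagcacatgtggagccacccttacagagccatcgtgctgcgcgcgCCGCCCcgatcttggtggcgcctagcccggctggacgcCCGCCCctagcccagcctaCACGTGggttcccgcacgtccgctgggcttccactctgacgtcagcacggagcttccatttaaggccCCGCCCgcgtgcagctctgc
Vdr: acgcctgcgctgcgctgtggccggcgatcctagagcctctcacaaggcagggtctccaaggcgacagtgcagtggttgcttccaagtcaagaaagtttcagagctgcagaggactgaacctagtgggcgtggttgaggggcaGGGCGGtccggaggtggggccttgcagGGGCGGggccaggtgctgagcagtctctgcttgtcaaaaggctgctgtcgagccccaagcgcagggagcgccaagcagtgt
Col6a1: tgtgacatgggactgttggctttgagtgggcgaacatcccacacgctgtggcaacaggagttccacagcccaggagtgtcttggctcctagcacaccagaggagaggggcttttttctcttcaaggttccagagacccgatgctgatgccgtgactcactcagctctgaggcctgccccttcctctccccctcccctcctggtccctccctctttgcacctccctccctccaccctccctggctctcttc

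Oat held 2 GC boxes, which begin 38 and 32 bases before the start site and lie end to end. Ldha held 3, beginning 144, 106 and 20 bases before it, and 1 E-box at 87 bases. Vdr held 2 GC boxes, at 108 and 81 bases, and Col6a1 held neither motif in this window. GC boxes were present in 30.5% of the 33469 promoters of that length and in 57.3% of the 10011 that belong to genes tested here, and E-boxes in 5.6% and 8.0%. These matches describe letters only.

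Genes of fatty acid and triglyceride synthesis were lower in weight-matched livers, but few passed for the tissue difference. Of 22 tested genes of this list, 2 passed for the difference, both below 0, beside 2.76% of all genes, and 20 did not. In liver 13 of them were lower and 2, Lpin1 and Mid1ip1, higher in weight-matched rats, beside 7.94% and 4.01% of all genes. Without the 4 vehicle libraries, 10 were lower and 1 higher in liver, beside 643 and 489 of 14261 genes. In quadriceps 0 passed in either direction by edgeR. The median tissue difference of the list was -0.50, against 0.02 over all genes, with a median of -0.80 in liver and -0.14 in quadriceps. At an unadjusted p under 0.05, 10 of the 22 lay below 0 and 2 above it for the difference, and DESeq2 called 5 below and 0 above. Over all genes, 2630 of 14110 had an unadjusted p under 0.05 for the difference in either direction, and DESeq2 called 801 of 13836. The same background holds for such counts in the lists below. Without the 4 vehicle libraries Me1 passed below 0 and Mid1ip1, a regulator of acetyl-CoA carboxylase named after its values were seen, passed above 0, with a median of -0.34.

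The 2 genes were Me1, malic enzyme, which supplies NADPH, and Acacb, the acetyl-CoA carboxylase whose product restrains fatty acid oxidation. Me1 had 9.94, 11.7 and 17.1 CPM in weight-matched livers against 12.6, 33.1 and 129.5 CPM in vehicle livers, and 283, 299.8 and 387 CPM in weight-matched quadriceps against 196, 264 and 356 CPM in vehicle quadriceps. Groups overlapped in both tissues, in liver through 1 low vehicle library. The difference was -2.05 ± 0.40 (adjusted p = 0.00265), from -1.79 in liver and 0.26 in quadriceps, and -1.25 without the 4 libraries (adjusted p = 0.0374). Acacb had 78.5, 91.5 and 172 CPM in weight-matched livers against 131, 251.5 and 428 CPM in vehicle livers, with 324, 373 and 447 CPM in weight-matched and 176, 332.5 and 499.5 CPM in vehicle quadriceps. The difference of Acacb, -1.38 ± 0.31 (adjusted p = 0.00904), was -1.11 and no longer passed without the 4 libraries (adjusted p = 0.0697).

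Scd, the stearoyl-CoA desaturase that makes monounsaturated fatty acids, did not pass for the tissue difference although its liver groups were fully separated. It had 61.7, 306 and 412.5 CPM in weight-matched livers against 636, 1907 and 6853 CPM in vehicle livers, and 1.03, 1.37 and 3.42 CPM in weight-matched quadriceps against 0.777, 2.75 and 10.55 CPM in vehicle quadriceps. The liver fold change was -3.24 (adjusted p = 2.86e-05), the quadriceps fold change -0.997 (adjusted p = 0.504) and the difference -2.24 ± 0.79 (adjusted p = 0.105). Among cholesterol genes, 1 of 25 passed for the difference, beside 2.76% of all genes: Tm7sf2, a sterol reductase, at -1.57 ± 0.41 (adjusted p = 0.0283). In liver 10 of the 25 were lower, beside 7.94% of all genes. Without the 4 vehicle libraries 4 were lower, beside 643 of 14261 genes. Tm7sf2 had 23.2, 31.5 and 62.1 CPM in weight-matched livers against 29.4, 70.05 and 202 CPM in vehicle livers, and was -0.98 without the 4 libraries (adjusted p = 0.273).

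Of 29 tested genes of glycolysis, glycogen and gluconeogenesis, 3 passed for the difference, all below 0, beside 1.38% of all genes: Ldha, Gapdh and Pgk1. Gapdh, glyceraldehyde-3-phosphate dehydrogenase, had 234, 388 and 419 CPM in weight-matched livers against 327, 451 and 922 CPM in vehicle livers. In quadriceps it had 5675, 6685 and 7864 CPM in weight-matched libraries against 3615, 4559 and 5662 CPM in vehicle libraries, with no overlap. Its difference was -1.05 ± 0.21 (adjusted p = 0.00424), with -0.56 in liver (adjusted p = 0.00884) and 0.48 in quadriceps (adjusted p = 0.0937), and -0.64 without the 4 libraries (adjusted p = 0.0305). Pgk1, phosphoglycerate kinase, had a difference of -0.68 ± 0.19 (adjusted p = 0.0419) and did not pass without them (-0.36, adjusted p = 0.206).

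In the list of amino acid breakdown and the urea cycle, 2 of 32 tested genes passed below 0, Oat and Got1, and 1 above, Cps1, which is taken up further on, beside 2.76% of all genes in either direction. Got1, the cytosolic aspartate aminotransferase, had 110.3, 127.5 and 175 CPM in weight-matched livers against 142, 278 and 629.8 CPM in vehicle livers, and 411, 581 and 772 CPM in weight-matched quadriceps against 299.7, 569 and 979.7 CPM in vehicle quadriceps. Its difference was -1.10 ± 0.32 (adjusted p = 0.0497) and -0.75 without the 4 libraries (adjusted p = 0.195). In liver 10 genes of the list were lower and 1, Glud1, was higher, beside 7.94% and 4.01% of all genes. Without the 4 vehicle libraries, 9 were lower and 1 higher, beside 643 and 489 of 14261 genes. The growth hormone axis gave 1 of 13 genes, beside the same 2.76%: Ghr, the growth hormone receptor, at -0.51 ± 0.12 (adjusted p = 0.0160). Ghr had 465, 529 and 629 CPM in weight-matched livers against 503, 675 and 811 CPM in vehicle livers, and 217.5, 243 and 278 CPM in weight-matched quadriceps against 167.5, 211 and 242 CPM in vehicle quadriceps. The difference remained at -0.45 without the 4 libraries (adjusted p = 0.0268). With same-numbered libraries paired it was -0.50 and did not pass (adjusted p = 0.0648). Igf1, the growth factor that Ghr induces in liver, was at -0.53 ± 0.24 and did not pass (adjusted p = 0.220).

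Extracellular matrix genes differed between the tissues mainly through lower levels in weight-matched quadriceps. Of 30 tested genes of matrix and collagen processing, 14 passed with the liver change above the quadriceps change, beside 1.37% of all genes, 0 passed in the other direction by edgeR and 16 did not pass. In quadriceps 15 of the 30 were lower in weight-matched rats, beside 1.2% of all genes, and 0 were higher by edgeR. The 15 became 5 without the 4 vehicle libraries, beside 23 of 14261 genes. They became 8 without vehicle liver 1 and vehicle quadriceps 2, beside 32 of 14172 genes. With all libraries, Col6a1 and Col6a2 were higher and Lox was lower in liver. The median tissue difference was 0.89, against 0.02 over all genes, with a median of 0.21 in liver and -0.73 in quadriceps. For the difference, 22 of the 30 lay above 0 and 0 below it at an unadjusted p under 0.05, and DESeq2 called 16 above and 0 below. Without the 4 vehicle libraries, 4 passed above 0 (Col4a2, Col6a1, Col6a2 and Sparc), beside 95 of 14261 genes, and the median was 0.62. Leaving out 1 library at a time gave 9 to 17, the lowest without vehicle quadriceps 5.

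Among fibrillar collagens, Col1a1, a chain of type I collagen, had 1.92, 3.81 and 7.48 CPM in weight-matched livers against 1.94, 3.105 and 5.16 CPM in vehicle livers. In quadriceps it had 60.4, 98.9 and 275 CPM in weight-matched libraries against 116, 324 and 516 CPM in vehicle libraries, and the groups overlapped in both tissues. The difference was 1.80 ± 0.44 (adjusted p = 0.0168), from 0.28 in liver and -1.51 in quadriceps (adjusted p = 0.00344), and 1.501 without the 4 libraries (adjusted p = 0.153). Col3a1, of type III collagen, had 55.7, 80.25 and 136 CPM in weight-matched and 58.05, 82.7 and 122 CPM in vehicle livers, against 121, 186 and 265 CPM in weight-matched and 131, 439.5 and 826 CPM in vehicle quadriceps. Its difference was 1.33 ± 0.33 (adjusted p = 0.0198). The type V chains Col5a1 and Col5a2 gave 1.21 and 1.16. Without the 4 libraries none of these 4 genes passed.

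Basement membrane and microfibril genes changed in the same direction. Col4a2, of type IV collagen, had 13.5, 15.1 and 22.1 CPM in weight-matched livers against 4.26, 14.5 and 23.6 CPM in vehicle livers, and 34.3, 44.8 and 55.4 CPM in weight-matched quadriceps against 63.7, 80.1 and 103 CPM in vehicle quadriceps. All weight-matched quadriceps lay below all vehicle quadriceps, and the same held for its partner chain Col4a1. The difference of Col4a2 was 1.18 ± 0.25 (adjusted p = 0.00596) and 0.80 without the 4 libraries (adjusted p = 0.0254). Col4a1 (0.96), the laminin chains Lama4 (0.82) and Lamb1 (0.81), fibrillin Fbn1 (1.24), the crosslinking enzyme Loxl2 (1.27) and the proteoglycan Bgn (1.07) passed with all libraries and not without the 4.

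Sparc, a collagen-binding glycoprotein, showed the lowest p in quadriceps of the list. It had 71.4, 85.4 and 94.8 CPM in weight-matched livers against 70.9, 74.4 and 105 CPM in vehicle livers, and 121, 166 and 229 CPM in weight-matched quadriceps against 218, 332 and 421 CPM in vehicle quadriceps. The quadriceps groups overlapped through 1 vehicle library, number 1. The quadriceps fold change was -0.91 ± 0.11 (adjusted p = 2.60e-06), the liver fold change 0.04 (adjusted p = 0.859), and the difference 0.95 ± 0.16 (adjusted p = 0.000422), or 0.88 without the 4 libraries (adjusted p = 0.00113). The exceptions in the list were Lox, lysyl oxidase, and Col15a1, whose differences were -1.635 (adjusted p = 0.369) and -1.54 (adjusted p = 0.280).

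Markers of matrix-making cells were read beside these values. The 6 fibroblast and stellate cell markers, all detected, summed to 65.9 to 146.5 CPM in weight-matched livers against 37.8 to 82.7 CPM in vehicle livers. In quadriceps they summed to 168.5 to 296 CPM in weight-matched libraries against 193 to 341 CPM in vehicle libraries. Of the 6, 1 passed in liver, beside 11.9% of all genes: Pdgfra, which was higher at 0.66 (adjusted p = 0.00676). By edgeR 0 passed in quadriceps or for the difference, beside 1.54% and 2.76% of all genes. The list shares Dcn with the matrix list. The 5 endothelial markers summed to 161 to 264 CPM in weight-matched and 84.2 to 229 CPM in vehicle livers, and to 119 to 198 CPM in weight-matched and 144 to 249.5 CPM in vehicle quadriceps. Of these 5, 1 passed for the difference, beside 2.76% of all genes: Kdr, a receptor for vascular growth factor, at 0.93 (adjusted p = 0.0185). The 3 erythroid markers, Hba-a2, Hbb and Alas2, passed as lower in weight-matched livers at -1.67, -1.76 and -1.98, beside 7.94% of all genes. In quadriceps they had the same direction, at -0.97, -0.996 and -1.06, and did not pass. None of the 3 passed for the difference. The part of these cells in the result was not tested, and in bulk RNA fewer cells of a type and less RNA per cell cannot be told apart.

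**Figure D3:**
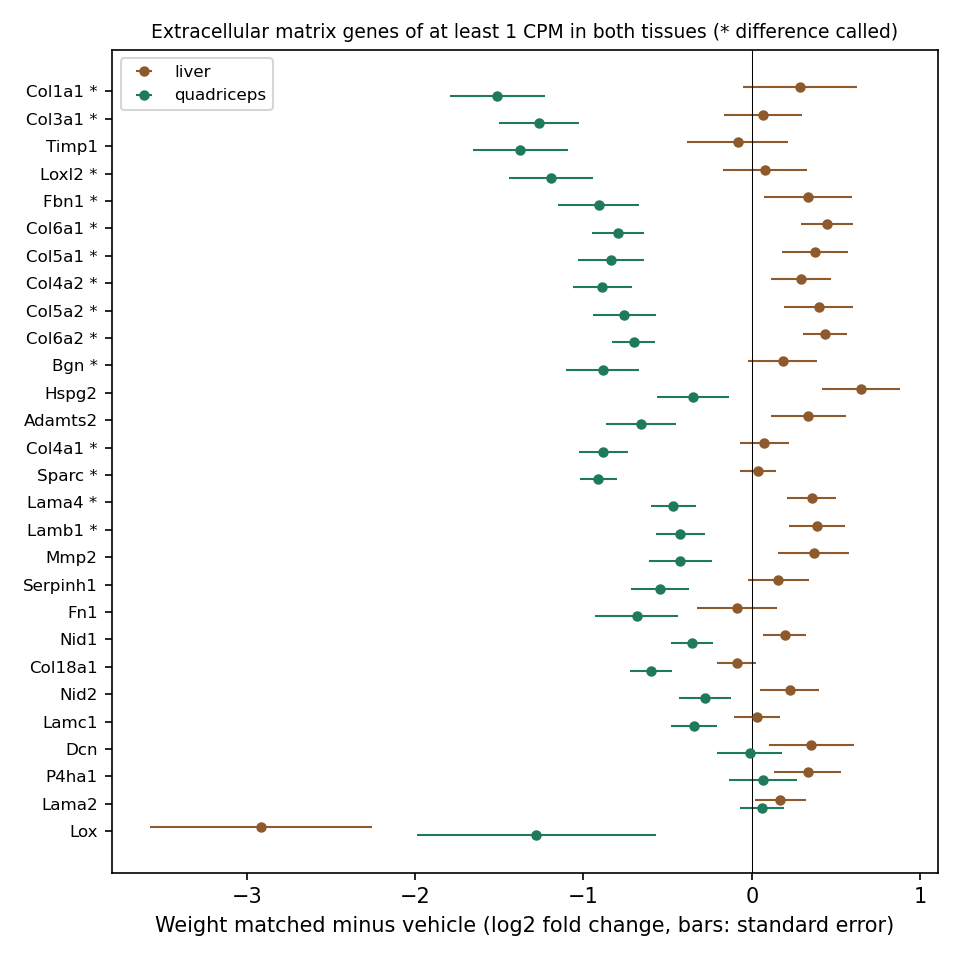
Log2 fold change of weight-matched over vehicle libraries in liver (brown) and quadriceps (green) for the 28 matrix genes averaging at least 1 CPM in both tissues, with standard errors as bars and genes ordered by the tissue difference. An asterisk marks the 14 genes that passed for the difference; for Sparc the quadriceps value is -0.91 and the liver value 0.04.

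The 7 genes that passed in both tissues with opposite signs form a small group. The type VI collagen chains Col6a1 and Col6a2, which form beaded filaments around cells, were higher in liver and lower in quadriceps. Col6a2 had 16.7, 22.4 and 32.4 CPM in weight-matched livers against 14.7, 16.9 and 19.9 CPM in vehicle livers, and 52.4, 57.75 and 73.3 CPM in weight-matched quadriceps against 60.3, 88.5 and 136 CPM in vehicle quadriceps. Groups overlapped in both tissues. Its fold changes were 0.44 ± 0.13 in liver (adjusted p = 0.0227) and -0.70 ± 0.13 in quadriceps (adjusted p = 0.00344), and the difference was 1.14 ± 0.18 (adjusted p = 0.000398). Col6a1 had 25.8, 30.1 and 47.9 CPM in weight-matched livers against 10.1, 24.8 and 30.5 CPM in vehicle livers, and 46.03, 51.05 and 66.5 CPM in weight-matched quadriceps against 66.4, 87.45 and 127 CPM in vehicle quadriceps. The quadriceps groups of Col6a1 overlapped by 1 library of each, and its difference was 1.24 ± 0.22 (adjusted p = 0.000897).

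Ddah1, which degrades the nitric oxide synthase inhibitor dimethylarginine, followed the same pattern. It had 132, 186.5 and 202 CPM in weight-matched livers against 58.9, 103 and 136 CPM in vehicle livers, and 6.38, 14.7 and 16.8 CPM in weight-matched quadriceps against 13.6, 17.6 and 60.7 CPM in vehicle quadriceps. The highest value belonged to vehicle quadriceps 2. The difference was 1.74 ± 0.32 (adjusted p = 0.00126) and 1.03 without the 4 libraries (adjusted p = 0.0254). Dapk2, a calmodulin-dependent kinase, had a difference of 0.79 ± 0.17 (adjusted p = 0.00646) from 0.36 in liver and -0.43 in quadriceps, and Ncs1, a calcium sensor, had 22 counts in all weight-matched livers and 2 in all vehicle livers.

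The reverse pattern, lower in liver and higher in quadriceps, was found for Arhgap12 and Gpcpd1. Arhgap12 had 35.5, 38.6 and 47.6 CPM in weight-matched livers against 34.9, 49.3 and 63.0 CPM in vehicle livers. In quadriceps it had 28.6, 36.9 and 39.8 CPM in weight-matched libraries against 21.5, 24.9 and 31.9 CPM in vehicle libraries, so that groups overlapped in both tissues. Fold changes were -0.29 ± 0.09 in liver (adjusted p = 0.0281) and 0.44 ± 0.09 in quadriceps (adjusted p = 0.00799), and the difference was -0.73 ± 0.13 (adjusted p = 0.000918). Gpcpd1, a glycerophosphocholine phosphodiesterase, had 11.7, 13.6 and 19.4 CPM in weight-matched livers against 14.3, 19.6 and 24.7 CPM in vehicle livers, and 260.1, 315 and 475 CPM in weight-matched quadriceps against 147, 210.2 and 303.5 CPM in vehicle quadriceps. The difference of Gpcpd1 was -1.12 ± 0.22 (adjusted p = 0.00265). Without the 4 vehicle libraries, all 7 genes passed for the difference, but only Arhgap12 passed in both tissues in opposite directions.

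**Figure D4:**
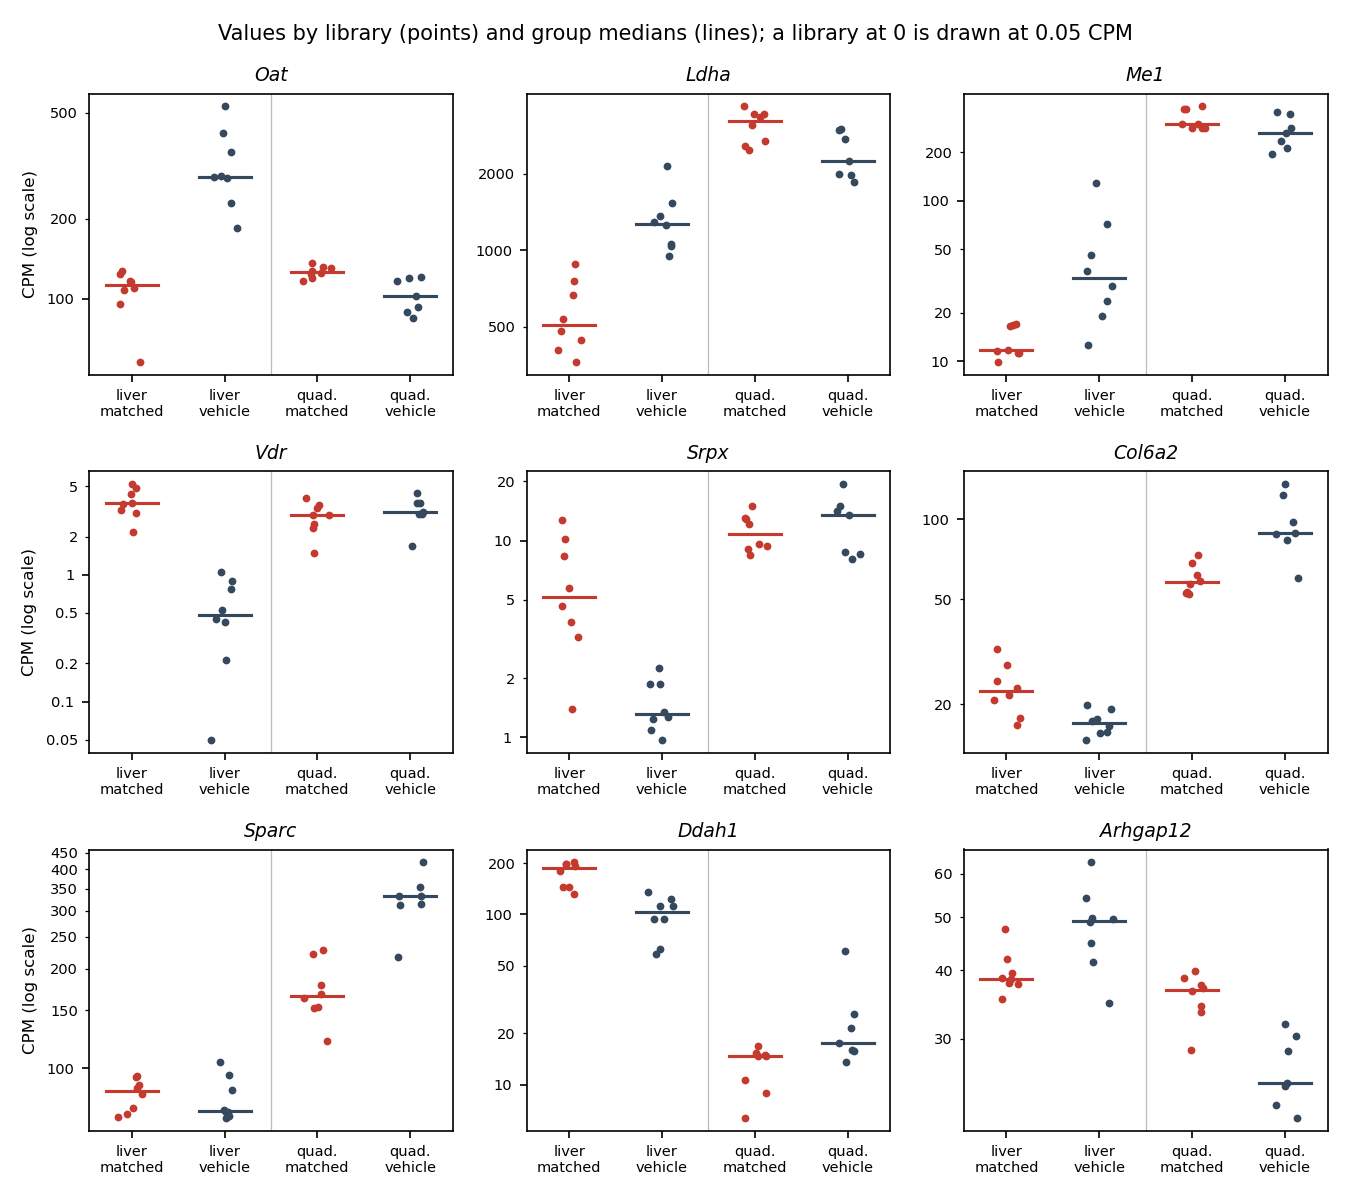
CPM (log scale) of 9 genes in every library, as points, with group medians as lines, for weight-matched (red) and vehicle (dark blue) libraries of liver and quadriceps; the 1 library without counts, for Vdr, is drawn at 0.05 CPM. Oat, Ldha and Vdr separated fully in liver, and the quadriceps medians of Sparc were 166 CPM in weight-matched and 332 CPM in vehicle libraries.

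Further genes with large negative differences and at least 1 CPM in both tissues changed mainly in liver. Cavin3, a coat protein of caveolae, had 3.49, 8.51 and 12.9 CPM in weight-matched livers against 9.31, 34.4 and 202 CPM in vehicle livers, with quadriceps medians of 24.05 CPM in weight-matched and 23.6 CPM in vehicle libraries. Its difference was -2.80 ± 0.61 (adjusted p = 0.00722) and -1.73 without the 4 libraries (adjusted p = 0.0817). Cldn1, a tight junction protein, had 1.85, 3.17 and 5.69 CPM in weight-matched livers against 6.87, 16.8 and 36.2 CPM in vehicle livers, without overlap, and a difference of -2.38 ± 0.55 (adjusted p = 0.0128), which was -2.03 without the 4 libraries (adjusted p = 0.0811). Ddhd1, a phospholipase, and Tor3a, a torsin ATPase, had differences of -2.44 and -2.21, and both passed without the 4 libraries at -1.56 and -1.503.

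On the other side, Srpx, a secreted sushi-repeat protein, had 1.39, 5.19 and 12.8 CPM in weight-matched livers against 0.971, 1.31 and 2.25 CPM in vehicle livers, and 8.40, 10.8 and 15.04 CPM in weight-matched quadriceps against 8.03, 13.4 and 19.3 CPM in vehicle quadriceps. In liver 1 weight-matched library lay among the vehicle libraries. The difference was 2.25 ± 0.42 (adjusted p = 0.00154) and 2.46 without the 4 libraries (adjusted p = 0.00521). Cacna1h, a T-type calcium channel subunit, had 0.213, 1.89 and 14.5 CPM in weight-matched livers against 0, 0.171 and 3.19 CPM in vehicle livers, and its difference of 3.12 ± 0.86 (adjusted p = 0.0356) did not pass without the 4 libraries (2.84, adjusted p = 0.129). PVR, an adhesion receptor, and Ptprn, a protein of dense-core vesicles, were highest in vehicle quadriceps 2. Vehicle quadriceps 2 held 151.6 CPM of PVR and 20.7 CPM of Ptprn, where the quadriceps vehicle medians were 11.5 and 2.16 CPM, and without that library neither passed. Ptprn also did not pass without vehicle liver 6, weight-matched liver 28, vehicle quadriceps 5 or weight-matched quadriceps 28.

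Slc7a5, a transporter of large neutral amino acids, had 3.04, 4.52 and 10.6 CPM in weight-matched livers against 1.18, 2.56 and 4.20 CPM in vehicle livers. In quadriceps it had 0.0748, 0.769 and 1.39 CPM in weight-matched libraries against 0.604, 1.335 and 3.04 CPM in vehicle libraries. Its difference was 1.95 ± 0.51 (adjusted p = 0.0281), which was 1.29 without the 4 libraries (adjusted p = 0.270). Atf5, a stress-induced transcription factor, moved the other way in liver, with 108, 194 and 253 CPM in weight-matched livers against 303, 362 and 618 CPM in vehicle livers, and a difference of -0.84 ± 0.23 (adjusted p = 0.0360). Without the 4 libraries the difference of Atf5 was -0.56 and did not pass (adjusted p = 0.262). Slc7a5 and Atf5 were the 2 called genes among 19 tested of ATF4 and amino acid stress, beside 2.76% of all genes. Without the 4 libraries 0 of the 19 passed, beside 190 of 14261 genes. Rxrg, a retinoid X receptor, was the other called nuclear receptor beside Vdr among 17 tested, at -0.96 ± 0.19 (adjusted p = 0.00265), and passed without the 4 libraries at -0.65 (adjusted p = 0.0367).

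Of the listed genes called for the difference, only Slc25a25 passed the test in quadriceps as higher in weight-matched rats. It encodes a mitochondrial ATP-magnesium carrier, and had 92.0, 119 and 189.7 CPM in weight-matched quadriceps against 24.0, 50.55 and 110.2 CPM in vehicle quadriceps. In liver it had 137, 216 and 336 CPM in weight-matched libraries against 166, 266 and 512.5 CPM in vehicle libraries, and the groups overlapped in both tissues. The quadriceps fold change was 1.11 ± 0.27 (adjusted p = 0.0232) and the difference -1.56 ± 0.36 (adjusted p = 0.0131), or -1.33 without the 4 libraries (adjusted p = 0.0690).

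The proteasome, which degrades tagged proteins, shifted slightly in liver. Of its 29 subunits, 17 were lower in liver, beside 7.94% of all genes, or 6 without the 4 vehicle libraries, beside 643 of 14261. In quadriceps 0 passed by edgeR. For the difference 2 passed, Psmd1 at -0.40 ± 0.10 (adjusted p = 0.0228) and Psmc5 at -0.44 ± 0.12 (adjusted p = 0.0356), while 20 lay below 0 at an unadjusted p under 0.05. DESeq2 called 7. Psmd1 had 74.9, 90.45 and 98.3 CPM in weight-matched livers against 98.1, 108 and 153 CPM in vehicle livers, which met at their edges, and 166, 181 and 207 CPM in weight-matched quadriceps against 151, 173.5 and 194 CPM in vehicle quadriceps. Without the 4 libraries Psmd1 passed at -0.33 (adjusted p = 0.0431), and Psmc5, at -0.28, did not (adjusted p = 0.126). The median of the list was -0.34, and -0.13 without the 4 libraries.

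Nuclear genes of oxidative phosphorylation gave no call for the difference by edgeR, although 33 of 34 lay below 0. Their median was -0.34, against 0.02 over all genes. Of the 34, 8 lay below 0 at an unadjusted p under 0.05, beside 2630 of 14110 genes in either direction, and DESeq2 called 0. In liver 10 were lower, beside 7.94% of all genes. Without the 4 vehicle libraries the median was 0.09 and 0 were lower in liver, beside 643 of 14261 genes. Cytosolic ribosomal protein genes had a median of -0.29, or 0.13 without the 4 libraries, and 0 of 29 called by edgeR, with 1 above and 1 below 0 at an unadjusted p under 0.05 and 0 by DESeq2. Leaving out vehicle liver 4 alone turned the ribosomal median to 0.11. In liver 0 of the 29 passed by edgeR with all libraries, and 16 were higher without the 4, beside 489 of 14261 genes.

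Of 19 circadian clock genes, 7 were higher and 3 lower in liver and 1, Nr1d1, lower in quadriceps, beside 4.01%, 7.94% and 1.2% of all genes. Without the 4 vehicle libraries these counts were 5, 3 and 0, beside 489, 643 and 23 of 14261 genes. For the difference 0 passed by edgeR, with 6 above and 1 below 0 at an unadjusted p under 0.05, and 2 above and 1 below by DESeq2. Without the 4 vehicle libraries, 1 clock gene passed above 0 by edgeR. Per1, a clock repressor, had 106, 127.5 and 144 CPM in weight-matched livers against 32.9, 70.25 and 141 CPM in vehicle livers, and 67.35, 102 and 112 CPM in weight-matched quadriceps against 82.95, 104 and 147 CPM in vehicle quadriceps. Its difference was 0.78 ± 0.23 (adjusted p = 0.0506). Collection time of the tissues is not given in the sources used here, and its part was not tested. Per1 passed in 8 of the 31 fits that left out 1 library.

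Of the other lists, fatty acid oxidation and ketogenesis had 0 of 31 genes called for the difference by edgeR, with 1 above and 3 below 0 at an unadjusted p under 0.05 and 0 by DESeq2. Over all genes the numbers were 2630 of 14110 at that unadjusted p and 801 of 13836 by DESeq2, in either direction. Insulin signalling and FOXO targets had 0 of 21, with 2 above and 3 below at an unadjusted p under 0.05 and 1 above by DESeq2. Glucocorticoid-responsive genes had 0 of 13, with 2 above and 3 below at an unadjusted p under 0.05 and 1 above and 1 below by DESeq2. Of the genes of muscle atrophy and autophagy, 0 of 17 passed, with 2 above and 2 below at an unadjusted p under 0.05 and 1 below by DESeq2. Without the 4 vehicle libraries, 1 of these 17 passed above 0 and 1 insulin signalling gene passed below 0. In liver 5 of the 17 were then higher, beside 489 of 14261 genes. Endoplasmic reticulum chaperones, mitochondrially encoded genes and immediate-early genes had 0 called by edgeR or DESeq2, and 1, 0 and 0 genes at an unadjusted p under 0.05.

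Lists of hepatocyte products had high medians that rested on quadriceps levels near 0. Acute-phase and complement proteins had a median difference of 1.33 and 0 of 16 called by edgeR, with 7 above and 0 below 0 at an unadjusted p under 0.05 and 5 above by DESeq2. Without the 4 vehicle libraries, which include vehicle quadriceps 2, that median was -0.09. Xenobiotic cytochromes and esterases had a median of 1.35, or 0.73 without the 4 libraries, and 0 of 18 called by edgeR, with 7 above and 1 below at an unadjusted p under 0.05 and 3 above by DESeq2. Bile acid genes had a median of 1.13, or 0.31 without them, and 0 of 15 called, with 2 above 0 at an unadjusted p under 0.05 and 1 by DESeq2.

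Further genes often followed in fasting did not pass for the difference. Pdk4, the kinase that restrains pyruvate oxidation, had 19.6, 32.4 and 53.7 CPM in weight-matched livers against 5.80, 36.2 and 101 CPM in vehicle livers, and 194, 451 and 1136 CPM in weight-matched quadriceps against 171, 293 and 499 CPM in vehicle quadriceps. Its difference was -1.14 ± 0.51 (adjusted p = 0.220). Irs2, an insulin receptor substrate, was at 0.22 ± 0.47 (adjusted p = 0.856). Fgf21, a fasting hormone of liver, had 1.90, 2.64 and 3.77 CPM in weight-matched livers against 1.12, 1.90 and 6.16 CPM in vehicle livers, and at most 0.203 CPM in any quadriceps library. Ucp3, a mitochondrial carrier of muscle, had 21.5, 80.4 and 154 CPM in weight-matched quadriceps against 20.45, 43.1 and 67.1 CPM in vehicle quadriceps, and 0 counts in weight-matched livers against 3 in vehicle livers, so that no liver fold is given.

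Muscle transcripts in liver gave the 4 most negative differences of the named genes, and most of their liver counts came from 1 library. Ckm, the muscle creatine kinase, had 2 counts in all weight-matched livers together and 190 in vehicle livers, a count ratio of 0.0101 (95% interval 0.00121 to 0.0369, counting error only). Vehicle liver 1 alone held 13.2 CPM of Ckm, 35.9 CPM of Myh4, the fast myosin heavy chain, and 18.5 CPM of Acta1, skeletal actin. The differences of Ckm, Myh4 and Acta1, -6.40, -6.19 and -6.01, were -1.60, -1.79 and -0.74 without that library and did not pass. Myl1, a myosin light chain, was at -5.18 with all libraries and at 0.66 without it, and Tnnc2, fast troponin C, passed at -3.77 and at -2.05 without it.

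Vehicle quadriceps 2 stood in the same place for liver transcripts. It held 31.3 CPM of Alb, serum albumin, 6.33 CPM of Gc, the vitamin D binding protein, 2.62 CPM of Apoh, a plasma glycoprotein, and 2.26 CPM of Cps1, the first enzyme of the urea cycle. At most 0.796, 0.133, 0.0760 and 0.0778 CPM of these 4 were found in weight-matched quadriceps, in the same order. Their tissue differences of 4.39, 4.21, 4.465 and 4.33 were 0.77, 1.34, 1.27 and 0.92 without that library, and none passed. In weight-matched against vehicle livers the 4 genes had fold changes of -0.17, -0.05, -0.06 and 0.04, and none passed.

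Ptk6, an intracellular tyrosine kinase measured in liver alone, had the largest negative difference of that class, with 0.3095, 0.522 and 0.730 CPM in weight-matched livers against 0.237, 2.31 and 4.41 CPM in vehicle livers. In quadriceps it had 19 counts in all weight-matched and 4 in all vehicle libraries. The medians there, 0.113 and 0 CPM, lay below the level that a count of 0 leaves room for. The difference was -3.89 ± 0.85 (adjusted p = 0.00728), from -2.07 in liver and 1.82 in quadriceps (adjusted p = 0.241). It passed in every fit that left out 1 library. Irs3, an insulin receptor substrate of rodents, had 0.9875, 1.496 and 3.27 CPM in weight-matched livers against 1.63, 6.61 and 33.4 CPM in vehicle livers, and its difference of -2.48 ± 0.67 (adjusted p = 0.0340) was lost without the 4 libraries (-1.51, adjusted p = 0.236). Homez, a homeobox gene, was at -1.15 (adjusted p = 0.04995) and passed in 10 of the 31 fits that left out 1 library.

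Among genes measured in quadriceps alone, Ncs1 passed in every fit that left out 1 library. It had 2.095, 3.46 and 4.11 CPM in weight-matched quadriceps against 3.63, 5.65 and 11.4 CPM in vehicle quadriceps, a fold change of -0.96 (adjusted p = 0.0144). Its liver counts gave a ratio of 10.5 (95% interval 2.59 to 92.4), and the difference was 3.87 ± 0.67 (adjusted p = 0.000897). Grip2, a synaptic scaffold protein, had 9 counts in weight-matched and 0 in vehicle livers, and the 95% interval of that ratio starts at 1.89 (counting error only). P2rx5, an ATP-gated channel, had 57 counts in weight-matched livers, most of them in library 28 at 3.52 CPM, and 1 in vehicle livers. Without weight-matched liver 28 its difference of 6.28 was 3.20 and did not pass.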

How the data were processed

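RNA was extracted with the RNeasy Minikit and sequenced with the Twist UMI system, per the labels' protocols. Per the submitters' processing notes, the tools were fastp 0.23.1 and STAR 2.5.2b. For the genome build, the annotation, the counting program, its strand setting and the use of UMIs, nothing is given in the sources used here. The authors deposited raw counts per gene in 1 table of 32552 genes, and 1 count column with no matching library was not used.

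Counts were scaled by TMM and fitted with edgeR 4.0.16 (R 4.3.3, limma 3.58.1) in 1 quasi-likelihood model over 46 libraries and 6 groups, with robust dispersions. Filtering with edgeR's default for those groups left 14110 genes. The contrast was weight matched minus vehicle in liver minus the same in quadriceps, and adjusted p-values are Benjamini-Hochberg over all genes tested, with a threshold of 0.05. Both tissue contrasts came from the same fit. The procedure was tested on simulated counts. No 2 libraries of a tissue were alike within counting noise.

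The comparison, the 25 gene lists and the alternatives were chosen with earlier results of these data known. Named genes are the largest positive and negative differences by tissue class, the genes opposite in both tissues, 1 gene per list with calls by lowest p, and a short set reported whatever its result. Other genes named were chosen after their values were seen. Symbols were matched to the table, with RefSeq names for 5. Alternatives were DESeq2 1.42.0, its size factors, TMM within each tissue, limma voom with group weights, other filters, the 31 libraries alone, a block by library number and leaving out libraries. Those without vehicle liver 1 were added after the data were seen.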

Additional observations from a re-analysis of the deposited data

Results flagged for a closer look

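The 389 genes whose response to weight matching differed between liver and quadriceps stand here as a group, because the test was of the difference itself.

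In 162 sets of 1 gene in 1 group, 31 values of 25 genes lay apart from the other libraries of their group by Dixon's criterion. For normally distributed values that criterion flags about 1 in 20 sets by chance. The sets were of named genes, many chosen for large differences, so these 31 values cannot be set against that rate. Vehicle quadriceps 2 held 10 of them: 151.6 CPM of PVR, 10.55 of Scd, 60.7 of Ddah1, 25.69 of Dapk2, 2.256 of Cps1, 20.74 of Ptprn, 31.3 of Alb, 6.332 of Gc, 78.54 of P2rx5 and 2.62 of Apoh. Vehicle liver 1 held 5, all of muscle transcripts: 13.15 CPM of Ckm, 6.04 of Tnnc2, 3.837 of Myl1, 35.89 of Myh4 and 18.48 of Acta1.

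Weight-matched liver 28 stood apart with 62.06 CPM of Tm7sf2, 42.12 of Ptprn, 74.91 of Psmd1 and 3.516 of P2rx5, and weight-matched liver 27 with 58.11 CPM of Oat. Vehicle liver 4 had 1962 CPM of Igf1, 152.6 of Psmd1 and 7118 of Apoh. Vehicle liver 6 had 6853 CPM of Scd, 14.98 of Tor3a and 104.6 of Ddhd1. Vehicle liver 2 had 3.186 CPM of Cacna1h and vehicle liver 5 had 6.305 CPM of Homez. In quadriceps, weight-matched library 27 had 2.489 CPM of Ptprn, weight-matched library 28 had 67.35 CPM of Per1 and vehicle library 8 had 108.2 CPM of Irs2. The causes were not tested.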

How the results depend on the processing

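Counts of genes past the threshold moved more with the method and the libraries than the direction of single genes did. For the tissue difference, with 389 genes, DESeq2 gave 801, limma voom 69, no filter on low counts 224 and the 31 libraries alone 125. Leaving out vehicle livers 4 and 6 and vehicle quadriceps 2 and 5 gave 190, leaving out the quadriceps pair 157, and leaving out vehicle liver 1 as well as the 4 gave 94. For liver, with 1686 genes, voom gave 634, the 31 libraries alone 905, leaving out vehicle livers 4 and 6 gave 980 and leaving out the 5 vehicle libraries 866. For quadriceps, with 217 genes, DESeq2 gave 459, no filter 135, the 31 libraries alone 48, leaving out the 4 vehicle libraries 33, the liver pair 623, the quadriceps pair 5, vehicle liver 1 with vehicle quadriceps 2 gave 41, and the 5 vehicle libraries 35. The cause was not tested.

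Leaving out 1 library at a time gave 238 (without vehicle liver 6) to 664 genes (without vehicle liver 7) for the difference, with 248 without vehicle quadriceps 5 and 258 without weight-matched quadriceps 25. It gave 1151 to 2257 for liver and 51 (without vehicle quadriceps 2) to 481 (without vehicle liver 4) for quadriceps. Quadriceps counts also moved without vehicle quadriceps 1 (392), 4 (358) and 5 (85) and without weight-matched quadriceps 25 (86), 26 (133), 28 (97) and 30 (122). Myl1, at -5.18 with all libraries, ranged from -6.18 to 0.66 with 1 left out: it reversed to 0.66 without vehicle liver 1, to 0.64 without vehicle quadriceps 2 as well and to 0.65 without the 5 vehicle libraries. With the library number as a replicate block, 283 genes passed for the difference, 229 of them among the 389. Same-numbered libraries correlated at -0.00082 to 0.26 over 15 pairs, 7 of them over 0.1, and 8 of the 15 liver libraries correlated best with their own number. That is a hint of pairing from the data, which the labels do not state. The fit without the block was kept as the main one, and its p-values ignore any such pairing. Of the named genes, Per1 alone passed with the block only (0.93, adjusted p = 0.0139 by edgeR), and 18 passed without it only, among them Ghr, Cavin3 and Tnnc2 (adjusted p = 0.0648, 0.0904 and 0.0682 with it).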

Other observations

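A set of 36 genes passed for the tissue difference in all 44 alternative fits, 11 with the liver change above the quadriceps change and 25 below it. They were chosen after their values were seen, and 1 of the fits kept only genes of at least 1 CPM in both tissues, so genes of a single tissue could not enter. Of the 389 genes, 178 passed in every fit that left out 1 library, and 71 in fewer than 50% of the fits.

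Beside genes already described, several of the 36 were lower in weight-matched livers and did not pass in quadriceps. P2ry2, a receptor for extracellular nucleotides, averaged 31.45 ± 5.83 CPM in weight-matched livers and 78.0 ± 19.9 CPM in vehicle livers (SD, n = 8 each), with a difference of -1.27 by edgeR's quasi-likelihood test (adjusted p = 0.00126). Cd164, a sialomucin, averaged 493.2 ± 56.5 CPM in weight-matched and 819 ± 171 CPM in vehicle livers, with a difference of -0.85, and Mreg, melanoregulin, had a difference of -1.04. Pdgfa, a platelet-derived growth factor chain, was at -0.87 and Mapk9, a stress-activated kinase, at -0.64.

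In the other direction, Lmo7, a protein of cell junctions, averaged 47.9 ± 8.35 CPM in weight-matched livers and 20.8 ± 9.06 CPM in vehicle livers, with a difference of 1.05 (edgeR, adjusted p = 0.00606). Cnn3, a calponin that binds actin, averaged 181 ± 16.5 CPM in weight-matched and 111 ± 15.3 CPM in vehicle livers, with a difference of 0.95. Plxnd1, a semaphorin receptor, differed through quadriceps, with 37 ± 5.79 CPM in weight-matched and 54.8 ± 10.7 CPM in vehicle libraries (n = 8 and 7) and a difference of 0.90 (edgeR, adjusted p = 0.00881).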
